A study of Mus musculus with 36 samples.

Results

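Mouse embryonic stem cells differentiating as hanging drops in serum were compared with the same kind of culture 24 h later, without any doxycycline (dox). The cells are labelled wild type and carry a Mesp1 transgene that dox switches on, and every library described here was labelled as made without dox. The comparison takes the 4 libraries labelled 24 h (2 in batch 1 and 2 in batch 2) against the 4 libraries labelled 0 h (2 in each batch), which is 8 of the 36 libraries of the series. The hours are counted from a labelled day of differentiation, so that 0 h is not the undifferentiated culture. For values only, 2 libraries of batch 1 at 12 h without dox and 2 libraries of cells in 2i medium without dox stand beside them; 2i medium blocks MEK and GSK3 and keeps naive pluripotency. The labels do not say whether the line is 1 clone, how many drops a library came from, or that replicates were separate cultures, so that p-values measure only the spread between these libraries. Expression is given as CPM, the count of a gene divided by the total count over all genes of that library and multiplied by 1000000, and values of 4 libraries are listed with both replicates of batch 1 before both of batch 2.

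In the mouse embryo, pluripotent epiblast cells pass from a naive to a primed state and then enter the primitive streak, where Wnt, Nodal and BMP signals switch on T-box and homeobox genes. Cells that leave the streak form mesoderm and definitive endoderm, and those that express Mesp1 give rise to cardiac and cranial mesoderm. Stem cells in hanging drops pass through similar states.

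The promoters of Mesp1 and Sp5, a zinc finger gene that responds to Wnt, are printed first, because they were the only promoters to hold a searched motif among those found for the 15 genes that rose most. They come from the RefSeq table (GRCm38.p6) and run from 250 bases before to 50 after the start of the gene in that table. For Mesp1 that start lies inside the gene in the annotation that gives the other coordinates here, so that most of its window is within the gene there; for Sp5 both starts are the same. The capitals mark TCACACCT, a T-box motif, and CTTTGAT, a TCF and LEF motif of Wnt response. The windows are chr7:79793541-79793840 on the minus strand and chr2:70474673-70474972 on the plus strand.
Mesp1: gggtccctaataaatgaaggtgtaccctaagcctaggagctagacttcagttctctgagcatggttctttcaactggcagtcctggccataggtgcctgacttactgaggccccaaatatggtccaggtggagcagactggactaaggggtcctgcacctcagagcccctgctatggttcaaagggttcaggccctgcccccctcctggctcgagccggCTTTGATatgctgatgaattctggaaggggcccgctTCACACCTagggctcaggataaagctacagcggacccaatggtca
Sp5: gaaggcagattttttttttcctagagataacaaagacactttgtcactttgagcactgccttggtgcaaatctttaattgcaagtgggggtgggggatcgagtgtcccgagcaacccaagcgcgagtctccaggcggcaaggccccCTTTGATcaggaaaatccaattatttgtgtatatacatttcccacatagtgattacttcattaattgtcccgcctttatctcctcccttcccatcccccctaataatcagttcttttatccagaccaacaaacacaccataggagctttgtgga
Both strands were searched, also for TGTNNATT (FOXH1) and GTCTAGAC (SMAD), and the marked matches do not overlap. The T-box motif was in 1 and the TCF and LEF motif in 2 of the 12 promoters found for these 15 genes, against 1.28% and 3.73% of all 32851 promoters in the table. The FOXH1 and SMAD motifs, which 12.2% and 0.213% of all promoters hold, were in 0 of the 12. Of the 12 promoters found for the 15 genes that fell most, 0 held any of the 4 motifs. A match describes letters in this window and nothing more.

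The gene totals of the 8 libraries ran from 12951085 to 41373234 counts. The 7 pluripotent stem cell markers (Pou5f1, Sox2, Nanog, Sall4, Lin28a, Utf1 and Tdgf1) summed to 2386 to 2715 CPM over the 8 libraries. The replicates at 0 h of batch 2 stood apart from each other: the variance between replicates over genes was 27.4 times that of counting error there, against 6.5 at 0 h of batch 1, 25.2 at 24 h of batch 1 and 4.47 at 24 h of batch 2. Replicate 2 at 0 h of batch 2 was low in Apob, a lipid carrier of visceral endoderm (28.96 and 4.09 CPM in replicates 1 and 2). Of the 17473 genes tested, 905 had no count in any library of batch 2 and 1 had none in batch 1, and 64 of the former were called. With only genes that had a count in both batches, 2473 genes were called higher and 2497 lower, against 2485 and 2487.

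Over both batches, 2485 of 17473 genes were called higher at 24 h (14.2%) and 2487 lower (14.2%) by edgeR's quasi-likelihood test with batch as a term, at a Benjamini-Hochberg adjusted p below 0.05. At least a 2-fold change was seen in 1018 of the genes that rose and 997 of those that fell, and the median log2 fold change of all genes tested was -0.00024. Of the 4972 genes called, 4880 had the same direction within both batches, and for 4281 both 24 h libraries lay beyond both 0 h libraries of the same batch, in each batch; of all genes tested, 21.3% lay above in this way and 13.5% below. Without replicate 2 at 0 h of batch 1 the calls were 1424 higher and 1402 lower. The lower calls were 1635 without replicate 1 at 24 h of batch 1 and 1577 without replicate 2 at 24 h of batch 2. In these bulk samples, a change in the share of cells that express a gene and a change in its RNA per cell cannot be told apart. The counts given below for each gene list are to be read beside the 14.2% of all genes called in each direction.

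Most genes listed for the primitive streak rose. T (Brachyury, the T-box factor that marks the streak; GRCm38 chromosome 17, 8434423 to 8442496) was at 12.9, 16.7, 4.41 and 6.33 CPM at 0 h and at 447, 422.3, 154.2 and 246.9 CPM at 24 h. The lowest 24 h library was far above the highest 0 h library, and the log2 fold change was 4.95 ± 0.19 (SE, adjusted p = 4.32e-07). Eomes, a T-box factor needed for endoderm and early mesoderm, was at 71.3, 50.99, 30.1 and 20 CPM at 0 h and at 536, 562.6, 523.8 and 616.2 CPM at 24 h. Its 24 h values lay close together after unequal 0 h values, and it rose by 3.74 ± 0.29 on the log2 scale (adjusted p = 3.67e-05). Mixl1, a homeobox gene of nascent mesendoderm, was at 7.83, 6.06, 2.58 and 1.08 CPM at 0 h and at 229.3, 274.5, 121.9 and 195.5 CPM at 24 h. Its groups did not overlap and its log2 fold change was 5.57 ± 0.31 (adjusted p = 4.74e-06). Evx1, a homeobox gene of the posterior streak, was at 0.38 to 2.07 CPM at 0 h and at 61.5, 54.6, 9.75 and 21.4 CPM at 24 h, higher in batch 1 (log2 fold change 4.91 ± 0.29, adjusted p = 4.22e-06).

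Of the 28 streak genes listed, 28 were tested, 23 were called higher and 0 lower, against 14.2% of all genes in each direction; without replicate 1 at 0 h of batch 2, 1 was lower. The median log2 fold change of the list was 2.84, with 3.34 in batch 1 and 1.92 in batch 2. The 5 not called were Apela, Bmp4, Fgf3, Mesp2 and Notum. Bmp4, a ligand that in the embryo comes largely from extraembryonic ectoderm, was at 3.69, 3.68, 6.16 and 6.25 CPM at 0 h and at 9.52, 6.36, 4.56 and 4.39 CPM at 24 h, with overlapping groups. Its log2 fold change was 1.04 in batch 1 and -0.55 in batch 2 (0.27 ± 0.31 over both, adjusted p = 0.546). Fgf8, a ligand that cells need to move away from the streak, was at 36.1, 32.3, 42.3 and 7.88 CPM at 0 h and at 103.3, 155.9, 65.7 and 89.8 CPM at 24 h, and replicate 2 at 0 h of batch 2 was the lowest. It rose by 1.71 ± 0.40 (log2, adjusted p = 0.01195), a call lost without replicate 2 at 0 h of batch 1 (adjusted p = 0.0582). Snai1, which represses E-cadherin in cells that leave the streak, went from 1.9 to 3.47 CPM to 13.6 to 57.2 CPM (log2 fold change 3.42 ± 0.28, adjusted p = 4.01e-05).

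**Figure D1:**
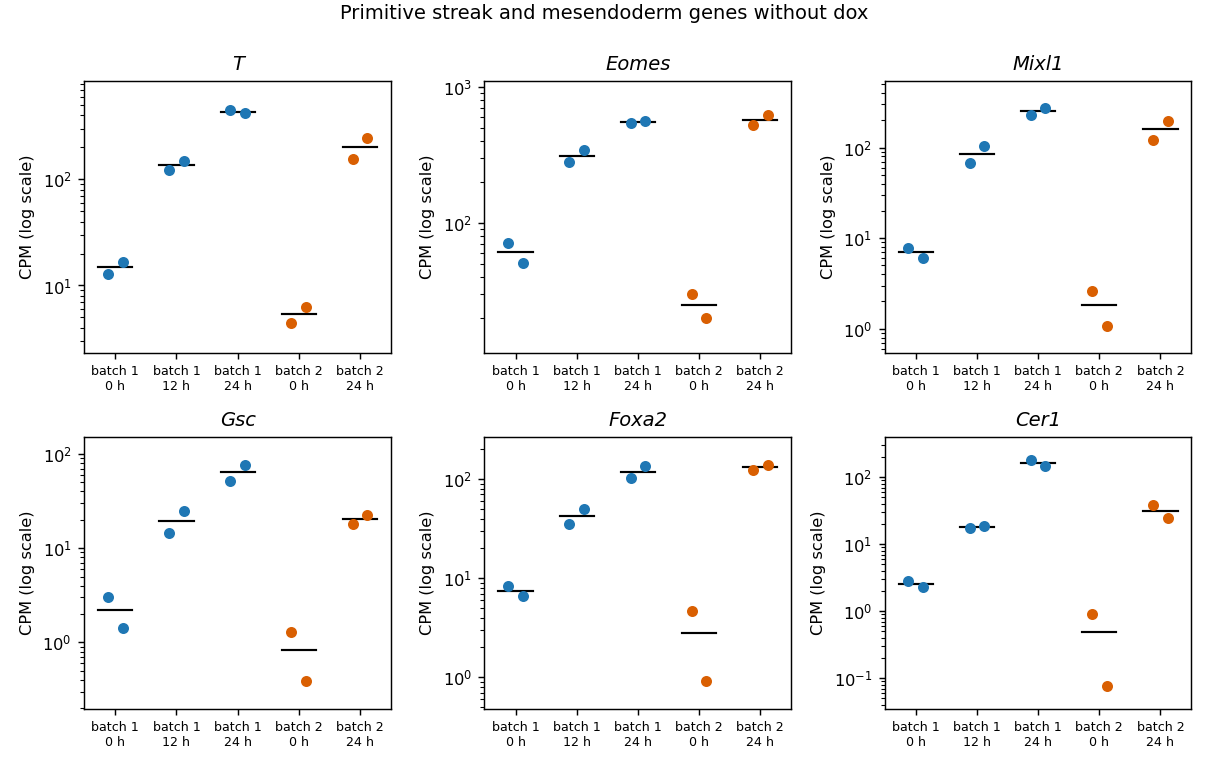
Level of 6 streak and mesendoderm genes in each library without dox, as CPM on a log axis, with batch 1 (0 h, 12 h and 24 h) in blue and batch 2 (0 h and 24 h) in orange. Each point is 1 library and each bar the mean of 2; in every panel the 24 h points lie above the 0 h points of both batches.

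Most organizer and anterior mesendoderm genes rose as well. Gsc (Goosecoid, a homeobox repressor of the organizer) was at 3.02, 1.43, 1.29 and 0.386 CPM at 0 h and at 51.6, 77, 18.2 and 22.8 CPM at 24 h, a rise of 4.70 ± 0.31 (log2, adjusted p = 1.05e-05). Foxa2, the forkhead factor of endoderm and axial mesoderm, was at 8.34, 6.54, 4.71 and 0.927 CPM at 0 h and at 102.9, 135, 124.5 and 137.3 CPM at 24 h. Its 24 h values were alike in both batches and none overlapped the 0 h values (log2 fold change 4.57 ± 0.39, adjusted p = 6.72e-05). Cer1, a secreted inhibitor of Nodal, BMP and Wnt, was at 2.798, 2.29, 0.912 and 0.0772 CPM at 0 h and at 179.5, 149, 38.1 and 24.4 CPM at 24 h. Although its level at 24 h was lower in batch 2, its log2 change was 5.94 in batch 1 and 5.88 in batch 2 (adjusted p of the difference = 1). Chrd (Chordin, a BMP inhibitor) rose by 3.20 ± 0.17 (log2, adjusted p = 2.51e-06). Lhx1, a homeobox factor of the organizer, rose by 5.07 ± 0.37 and Frzb, a secreted Wnt inhibitor, by 6.33 ± 0.40 (adjusted p = 2.99e-05 and 8.96e-06).

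Of 18 organizer and axial genes listed, 17 were tested, 11 were called higher and 1 lower, with 2 lower without replicate 1 at 0 h of batch 2. The median log2 fold change was 2.91. The gene that fell was Lefty1, a Nodal inhibitor, from 137.3, 169.5, 193.3 and 335.4 CPM at 0 h to 30.9, 40.6, 45.6 and 41.01 CPM at 24 h (log2 fold change -2.43 ± 0.20, adjusted p = 3.67e-05). Its relative Lefty2 was at 187.2, 150.9, 106.9 and 118.4 CPM at 0 h and 101.2, 97.9, 125 and 117.5 CPM at 24 h, and its change was not called (-0.41 ± 0.16, adjusted p = 0.0856). Noto, a node gene, had 0 counts in the libraries of 0 h, and at 24 h 42 counts over batch 1 and 11 over batch 2.

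Of 19 definitive endoderm genes listed, 17 were tested, 9 were called higher and 1 (Epcam) lower, and 3 had a change that differed between batches. Sox17, an endoderm factor, was at 2.46, 3.82, 1.06 and 0.695 CPM at 0 h, at 68.9 and 60.4 CPM at 24 h of batch 1 and at 1.67 and 1.07 CPM at 24 h of batch 2. The 24 h values of batch 2 lay among the 0 h values, and those of batch 1 far above. The log2 change was 4.28 in batch 1 (adjusted p = 1.09e-05) and 0.56 in batch 2 (adjusted p = 0.358), and the difference was -3.72 ± 0.49 (adjusted p = 0.0228). The call over both batches (3.36 ± 0.63, adjusted p = 0.00413) was lost without replicate 2 at 0 h of batch 1 (adjusted p = 0.052), and 16.9% of the exon bases of Sox17 are shared with another gene. Cxcr4, the chemokine receptor of endoderm and migrating mesoderm, was at 1.14 to 1.68 CPM at 0 h, at 56.7 and 37.3 CPM at 24 h of batch 1 and at 2.54 and 2.07 CPM at 24 h of batch 2. Its change also differed between batches (-4.15 ± 0.45, adjusted p = 0.0143), and its call over both (adjusted p = 0.008296) was lost without replicate 2 at 0 h of batch 1 (adjusted p = 0.0607). The differences between batches were not called without replicate 1 or 2 at 0 h, or replicate 1 at 24 h, of batch 1, when 0 genes were.

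Mesp1 itself rose far more in batch 1. Mesp1 (GRCm38 chromosome 7, 79792241 to 79793788, minus strand), the basic helix-loop-helix factor of cardiac and cranial mesoderm, was at 0.224, 0.382, 0.532 and 0.386 CPM at 0 h, at 41.5 and 45.2 CPM at 24 h of batch 1 and at 0.808 and 1.505 CPM at 24 h of batch 2. All 24 h libraries were above all 0 h libraries, those of batch 2 by little. The log2 change was 7.04 in batch 1 (adjusted p = 6.33e-06) and 1.23 in batch 2 (adjusted p = 0.0919), and the difference was -5.81 ± 0.69 (adjusted p = 0.0175). Reads of the transgene and of the native gene cannot be told apart in these counts. Kdr (Flk1, the VEGF receptor of early mesoderm) was at 0.951, 0.764, 1.22 and 2.01 CPM at 0 h, at 79.5 and 56.5 CPM at 24 h of batch 1 and at 5.37 and 4.33 CPM at 24 h of batch 2. In the fit of both batches it rose by 6.23 in batch 1 and by 1.51 in batch 2 on the log2 scale (adjusted p = 6.33e-06 and 0.0101), but the rise of batch 2 was not called when that batch was fitted alone (adjusted p = 0.0677), and the changes differed by -4.72 ± 0.43 (adjusted p = 0.00734). Sp5, the other gene whose promoter is printed, was at 1.96, 1.53, 0.608 and 0.927 CPM at 0 h and at 83.9, 118.2, 13.2 and 25.96 CPM at 24 h, a rise in both batches (5.42 ± 0.34, adjusted p = 6.96e-06). Neither difference between batches was called without replicate 1 or 2 at 0 h, or replicate 1 at 24 h, of batch 1, when 0 genes were.

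Of 25 nascent and lateral mesoderm genes listed, 24 were tested, 16 were called higher and 0 lower, with 1 lower without replicate 1 at 0 h of batch 2. Their median log2 fold change was 3.32 in batch 1 and 1.02 in batch 2. Aplnr, the apelin receptor of migrating mesoderm (GRCm38 chromosome 2, 85136225 to 85139923), had the highest log2 fold change of the 15 genes that rose most. It was at 0.616, 0.764, 0.38 and 0.154 CPM at 0 h and at 112.2, 110.2, 7.96 and 8.65 CPM at 24 h, without overlap (6.82 ± 0.33, adjusted p = 1.75e-06). Its ligand Apln was at 8.45, 6.59, 5.47 and 3.86 CPM at 0 h and at 91.05, 101.6, 79.8 and 77 CPM at 24 h, nearly as high in batch 2 as in batch 1 (3.78 ± 0.15, adjusted p = 4.92e-07). Pdgfra, the PDGF receptor of paraxial and cardiac mesoderm, was at 8.84, 14.7, 4.86 and 2.78 CPM at 0 h and at 124.1, 108.2, 11.02 and 12.6 CPM at 24 h. Its 24 h libraries of batch 2 lay below the highest 0 h library of batch 1, but within each batch they were above those of 0 h (2.54 ± 0.34 over both, adjusted p = 0.000747). Hand1, a factor of lateral and extraembryonic mesoderm, was at 0.0477 to 0.0772 CPM at 0 h, at 9.47 and 4.64 CPM at 24 h of batch 1 and at 0.115 and 0.188 CPM at 24 h of batch 2.

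Of 20 paraxial and presomitic genes, 14 were tested, 6 were called higher and 1 lower. Their median log2 fold change was 2.24 in batch 1 and -0.37 in batch 2. Tbx6, the T-box factor of presomitic mesoderm, was at 0.304 to 0.695 CPM at 0 h, at 10.3 and 8.27 CPM at 24 h of batch 1 and at 1.21 and 0.941 CPM at 24 h of batch 2. Mesp2, the segmentation gene next to Mesp1, was at 0.504, 0.525, 0.836 and 0.849 CPM at 0 h, at 13.3 and 8.86 CPM at 24 h of batch 1 and at 0.462 and 0.627 CPM at 24 h of batch 2. Its log2 change was 4.34 in batch 1 and -0.71 in batch 2 (difference -5.05 ± 0.55, adjusted p = 0.0143), and over both batches it was not called (2.41 ± 0.87, adjusted p = 0.0638). That difference too was not called without replicate 1 or 2 at 0 h, or replicate 1 at 24 h, of batch 1. Tcf15, a factor of paraxial mesoderm that primed epiblast also expresses, fell by 2.24 ± 0.25 (log2, adjusted p = 0.000234). Of 19 cardiac progenitor genes, 14 were tested, 8 were called higher and 1 lower. Their median log2 fold change was 2.885 in batch 1 and 0.15 in batch 2. Without replicate 1 at 0 h of batch 1 5 were higher, without replicate 1 at 24 h of batch 1 5 were higher and 0 lower, and without replicate 2 at 0 h of batch 1 0 were lower. Gata5, Myocd, Nkx2-5, Tbx1 and Tbx5 did not pass the filter on low counts.

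**Figure D2:**
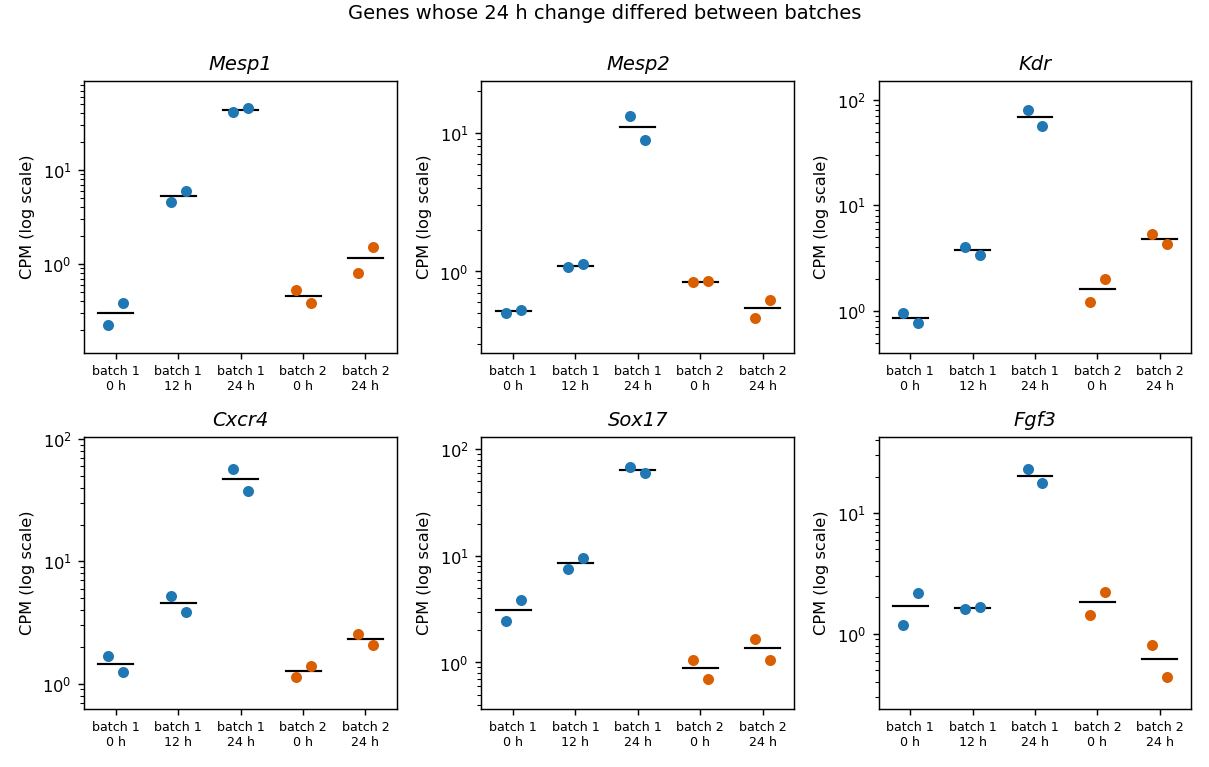
Level of 6 genes whose change from 0 h to 24 h differed between batches, as CPM on a log axis, in each library without dox (batch 1 in blue, batch 2 in orange; each point is 1 library, each bar the mean of 2). In batch 1 all 6 were highest at 24 h, and in every panel the 24 h points of batch 2 lie far below those of batch 1.

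Within batch 1, 1638 genes were called higher (9.37%) and 1542 lower (8.83%), and within batch 2, 1253 were higher (7.17%) and 1390 lower (7.96%). The 1338 genes called the same way in both were 42.1% of the calls of batch 1 and 50.6% of those of batch 2, and 14 were called in opposite directions. Across 10318 genes with a mean of at least 10 CPM, the changes of both batches had a Pearson r of 0.689, as a description, since genes of 1 library share its depth and scaling. The change itself differed between batches for 55 genes (0.315%), more positive in batch 1 for 44 (0.252%) and in batch 2 for 11 (0.063%). The number of these calls changed with the library left out, and each such fit also had fewer libraries to test with. Without replicate 1 or 2 at 0 h of batch 1, or replicate 1 at 24 h of batch 1, 0 genes were called in either direction. Leaving out replicate 2 at 24 h of batch 1 gave 5 and 3 genes in the same order, replicate 1 at 24 h of batch 2 gave 9 and 3, and replicate 2 at 24 h of batch 2 gave 10 and 3. Without replicate 1 at 0 h of batch 2 the counts were 213 and 227, and without replicate 2 they were 362 and 311. Fgf3, an FGF ligand of the streak, was at 1.18, 2.196, 1.44 and 2.24 CPM at 0 h, at 23.2 and 17.6 CPM at 24 h of batch 1 and at 0.808 and 0.439 CPM at 24 h of batch 2, so that it moved up in batch 1 (log2 3.51, adjusted p = 0.000176) and down in batch 2 (-1.62, adjusted p = 0.0411, and 0.101 with batch 2 fitted alone). Fn1 (fibronectin, a matrix protein) went from 534.8 and 499.6 to 1494 and 1587 CPM in batch 1 and from 348.3 and 521.2 to 347.3 and 319 CPM in batch 2 (difference -1.97 ± 0.25, adjusted p = 0.0227). Tgfbr3, a TGF-beta co-receptor, rose more in batch 2, by 4.07 against 2.06 in batch 1 (log2, difference 2.02 ± 0.27, adjusted p = 0.0228).

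**Figure D3:**
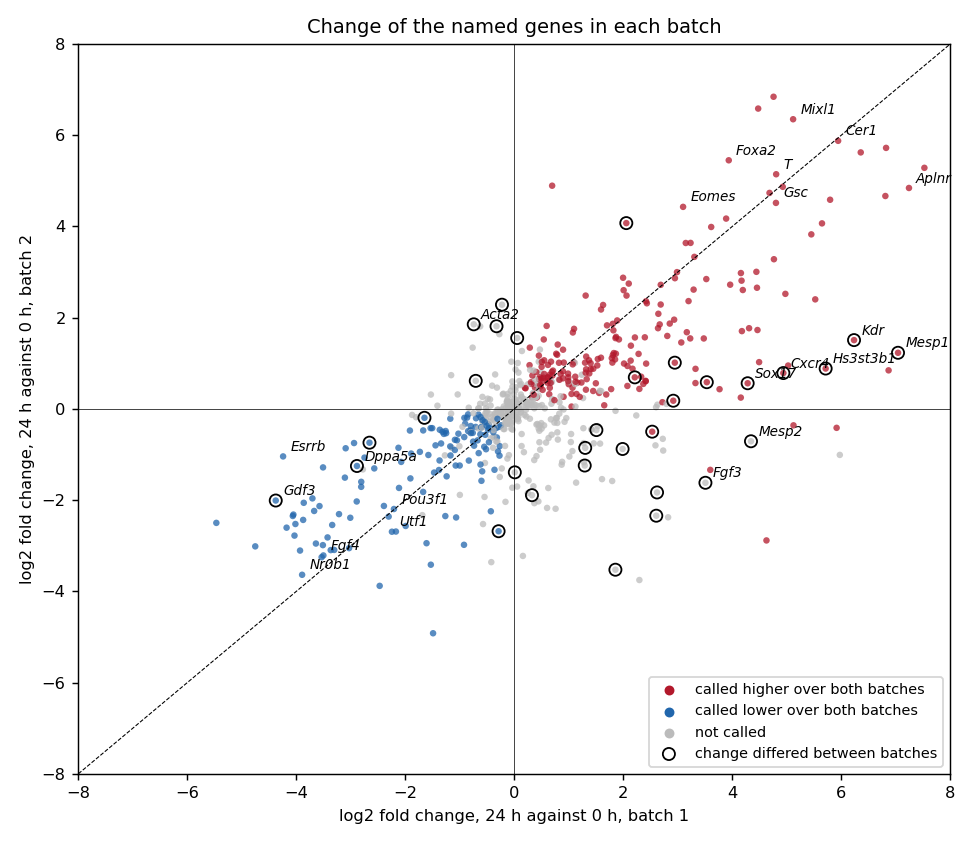
Fitted log2 fold change from 0 h to 24 h in batch 1 (horizontal) and batch 2 (vertical) of 632 genes named by rule or held in the gene lists, with 1 point per gene; red and blue mark genes called higher and lower over both batches, rings mark 32 genes whose change differed between batches, and the dashed line marks equal change. T, Cer1 and Gsc lie near the line, while Mesp1, Kdr, Cxcr4 and Sox17 lie far to its right.

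Few markers of visceral and extraembryonic endoderm were called over both batches. Of 24 listed, 23 were tested, 1 was called higher (Pdgfra) and 2 lower (Apoe and Lrp2). The higher calls were 5 without replicate 1 and 2 without replicate 2 at 0 h of batch 2. Their summed level was 1723 and 2333 CPM at 0 h and 2357 and 2647 CPM at 24 h in batch 1, and 1679 and 1463 CPM at 0 h and 1013 and 892.8 CPM at 24 h in batch 2, with a median log2 change of 0.60 in batch 1 and -1.22 in batch 2. By edgeR's test of the interaction 0 of the tested markers differed between batches after adjustment and 14 at an unadjusted p below 0.05; DESeq2 called 6, the fit with the replicate block 4 and that without a filter on low counts 8. Without replicate 1 at 0 h of batch 2 edgeR called 2, and without replicate 2 it called 15. Within batch 1, 2 of the 23 tested markers were called higher and 1 lower. Within batch 2, 1 was called higher and 8 lower, against 7.17% and 7.96% of all genes. Of the 24 markers, Apoa2 was at 0 in both 24 h libraries of batch 2. Cubn, an endocytic receptor of visceral endoderm, was at 157, 302.9, 139.3 and 38.7 CPM at 0 h and at 285.5, 285.4, 34.3 and 17.9 CPM at 24 h. The part of these cells in the results that differed between batches was not tested.

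Many Wnt ligands, receptors and feedback genes rose. Of 31 ligands and receptors listed, 27 were tested, 16 were called higher and 1 lower, with 2 lower without replicate 2 at 0 h or replicate 1 at 24 h of batch 2. Wnt3, the ligand needed to start the streak in the embryo, was at 8.39, 7.11, 6.31 and 9.11 CPM at 0 h and at 50.6, 51.02, 31.2 and 38 CPM at 24 h. Its groups did not overlap, and the change was 2.37 ± 0.17 (log2, adjusted p = 1.93e-05). Wnt3a, a later streak ligand, had 7 counts in 1 of the 4 libraries at 0 h and 0 in the others, and was at 3.26, 5.35, 0.519 and 0.6897 CPM at 24 h. Lgr5, a receptor for R-spondins, rose by 4.05 ± 0.35 and the R-spondin Rspo3 by 3.67 ± 0.26 (log2, adjusted p = 5.47e-05 and 1.56e-05). Of 25 antagonists and response genes, 24 were tested, 13 were called higher and 3 lower. Axin2, a feedback inhibitor that Wnt signalling induces, rose by 2.42 ± 0.24 and Dkk1, a secreted inhibitor, by 3.22 ± 0.51 (adjusted p = 0.000154 and 0.00176). Tcf7l1, a repressor of Wnt targets in stem cells, fell by 0.74 ± 0.13 (adjusted p = 0.00235).

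Nodal pathway genes went in both directions, beside 14.2% of all genes called each way. Of 25 listed, 24 were tested, 9 were called higher and 5 lower, with 8 lower without replicate 1 at 0 h of batch 2. Nodal, the TGF-beta ligand that patterns the streak, was at 86.8, 84.9, 99.8 and 154.9 CPM at 0 h and 58.9, 81.4, 117 and 131 CPM at 24 h, with overlapping groups (log2 fold change -0.24 ± 0.16, adjusted p = 0.273). Its co-receptor Tdgf1 (Cripto) rose from 321.2 to 504.1 CPM at 0 h to 657.7 to 786.5 CPM at 24 h (0.84 ± 0.14, adjusted p = 0.00174). Fst (follistatin, which binds activin) was at 36.1, 26.4, 18.4 and 30.6 CPM at 0 h and at 261.1, 317.9, 257.6 and 386.7 CPM at 24 h. Fst rose by 3.39 ± 0.22 (log2, adjusted p = 1.39e-05), whereas Gdf3, a Nodal-related ligand of stem cells, fell by 3.07 ± 0.43 (adjusted p = 0.000992).

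In the BMP pathway 26 genes were listed, 25 were tested, 14 were called higher and 1 (Smad7, an inhibitory Smad) lower, with 2 lower without replicate 1 at 0 h of batch 2. The ligand Bmp2 rose by 2.99 ± 0.22 and Bmp7 by 3.40 ± 0.34 (log2, adjusted p = 2.32e-05 and 0.000126). Msx1, a homeobox target of BMP signalling, was at 2.91, 3.82, 1.37 and 3.24 CPM at 0 h, at 39.5 and 31.6 CPM at 24 h of batch 1 and at 4.5 and 4.45 CPM at 24 h of batch 2. The response gene Id3 rose by 0.87 ± 0.19 (log2, adjusted p = 0.00672), with 1.31 in batch 1 and 0.42 in batch 2.

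FGF ligands changed in opposite directions. Of 19 FGF ligands, receptors and binding proteins listed, 18 were tested. Of these, 7 were called higher and 4 lower, beside 14.2% of all genes in each direction. The higher calls were 4 without replicate 1 and 3 without replicate 2 at 0 h of batch 1. The lower calls were 2 without replicate 2 at 0 h of batch 1, replicate 1 at 24 h of batch 1, or replicate 1 or 2 at 24 h of batch 2. Fgf4, the ligand that stem cells make for themselves (GRCm38 chromosome 7, 144847367 to 144865243), was at 97.2, 101.1, 80.8 and 150.4 CPM at 0 h and at 11.8, 6.18, 17.02 and 9.28 CPM at 24 h. All 24 h libraries were below all 0 h libraries (-3.36 ± 0.27, adjusted p = 4.78e-05). Fgf17, a streak ligand, rose by 1.41 ± 0.21 (adjusted p = 0.00105). Of 19 genes that FGF and ERK signalling induces, 19 were tested, 6 were called higher and 3 lower (Spry1, Etv5 and Ccnd1), and 10 were not called. The lower calls were 0 without replicate 2 at 0 h or replicate 1 at 24 h of batch 1 or replicate 2 at 24 h of batch 2, and 1 without replicate 1 at 0 h or replicate 2 at 24 h of batch 1 or replicate 2 at 0 h of batch 2. Spry1, an inhibitor of the pathway, fell by 0.56 ± 0.16 and Etv5, an ETS factor downstream of ERK, by 0.53 ± 0.17 (log2, adjusted p = 0.0264 and 0.0373). Both calls were lost without any 1 library of batch 1 or replicate 2 at 24 h of batch 2 (adjusted p from 0.0585 to 0.115 for Spry1 and from 0.0657 to 0.119 for Etv5), and that of Etv5 also without replicate 2 at 0 h of batch 2. Dusp6, a phosphatase that inactivates ERK, rose by 0.79 ± 0.10 and Il17rd, another inhibitor, by 1.10 ± 0.14 (adjusted p = 0.000562 and 0.000403).

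Many naive pluripotency genes fell. Of 29 listed, 29 were tested, 16 were called lower and 3 higher, with a median log2 fold change of -1.71. Nr0b1 (Dax1, an orphan receptor of the naive network; GRCm38 chromosome X, 86191764 to 86195947) was at 25.5, 17.9, 25.8 and 35.2 CPM at 0 h and at 1.89, 1.01, 2.596 and 2.57 CPM at 24 h, against 108.1 and 116.5 CPM in 2i. It had the lowest log2 fold change of the 15 genes that fell most (-3.77 ± 0.22, adjusted p = 4.22e-06). Esrrb, another orphan receptor of naive cells, was at 59.2, 34.5, 28.4 and 58.99 CPM at 0 h, at 3.24 and 1.72 CPM at 24 h of batch 1 and at 26.4 and 18.4 CPM at 24 h of batch 2. The call of Esrrb (-2.52 ± 0.65, adjusted p = 0.0195) was lost without replicate 2 at 0 h (0.0696), replicate 1 at 24 h (0.0776) or replicate 2 at 24 h (0.0539) of batch 1, and without replicate 2 at 0 h (0.0618) or replicate 2 at 24 h (0.0566) of batch 2. Klf4 was at 2.24, 2.77, 4.48 and 4.401 CPM at 0 h and at 4.83, 5.83, 2.596 and 1.94 CPM at 24 h, against 476.7 and 600.3 CPM in 2i. Pecam1 (CD31, on naive stem cells and endothelium) fell by 2.90 ± 0.32 and Klf2, a naive Krüppel-like factor, by 2.18 ± 0.28 (adjusted p = 0.000214 and 0.000516).

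The core factors did not share a direction. Pou5f1 (Oct4) was at 798, 749.9, 528.9 and 478.6 CPM at 0 h and at 561.5, 706.7, 447.4 and 482 CPM at 24 h, with overlapping groups (-0.27 ± 0.10, adjusted p = 0.0704). Sox2 was at 174.1, 114.6, 113.2 and 141.1 CPM at 0 h and at 47.04, 34.7, 76.7 and 59.6 CPM at 24 h, and fell without overlap (-1.44 ± 0.22, adjusted p = 0.00132). Nanog was at 168.8, 134.4, 207.7 and 133.2 CPM at 0 h and at 228.7, 222.2, 339.7 and 343 CPM at 24 h. Every 24 h value of Nanog was above every 0 h value, and it rose by 0.71 ± 0.15 (log2, adjusted p = 0.00617), a call lost in a fit of the 18 libraries of both batches (adjusted p = 0.158). Of 16 genes of general pluripotency, 16 were tested, 8 were called lower and 1 (Tdgf1) higher. Utf1, a chromatin factor of pluripotent cells, was at 295.9, 334.3, 404.1 and 346.5 CPM at 0 h and at 61.3, 77.95, 64.5 and 58.2 CPM at 24 h (-2.47 ± 0.13, adjusted p = 2.56e-06).

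**Figure D4:**
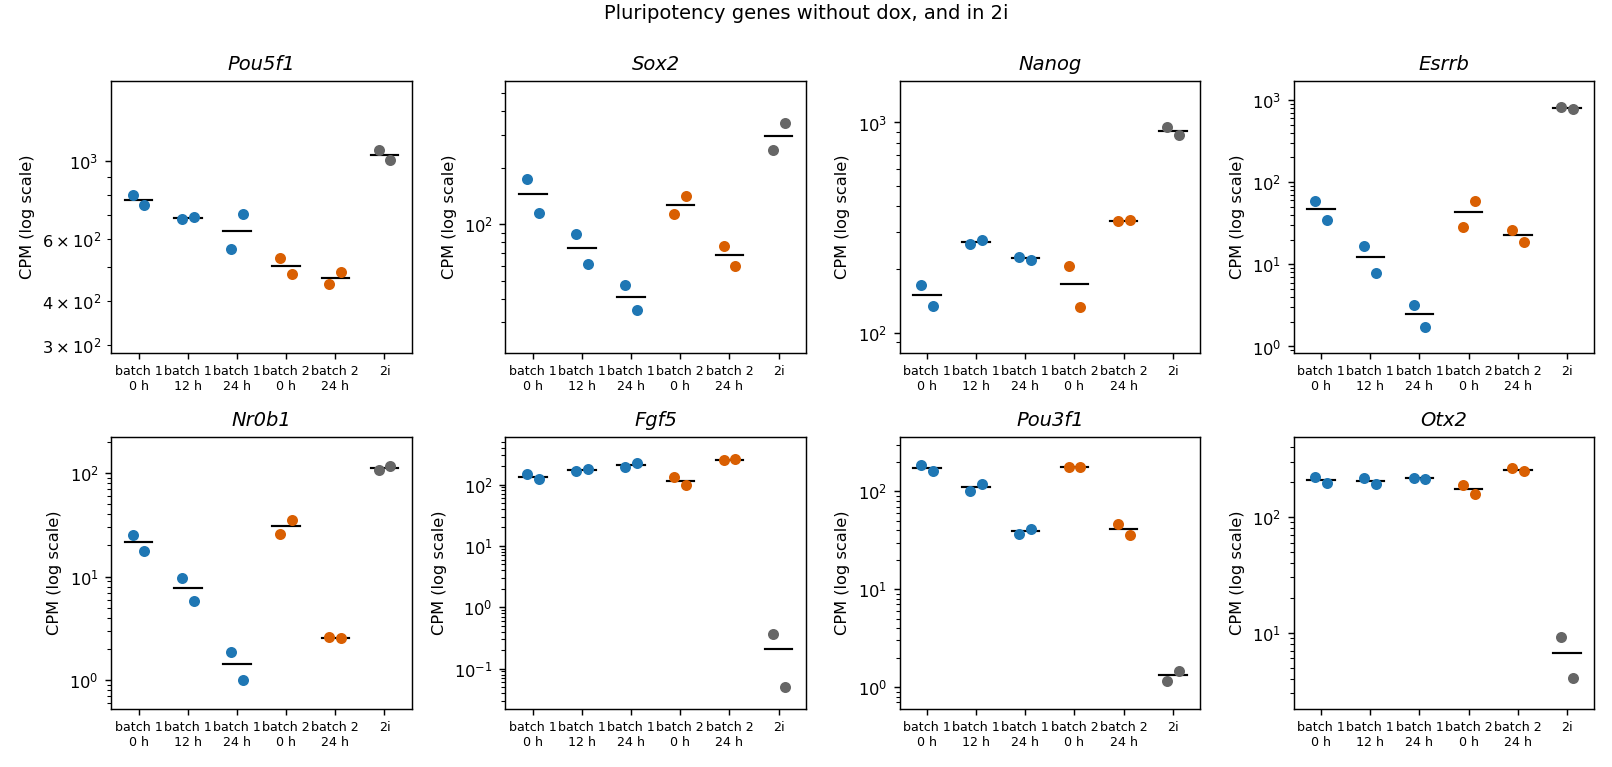
Level of 8 pluripotency genes as CPM on a log axis in each library without dox (batch 1 in blue, batch 2 in orange) and in the 2 libraries labelled 2i (grey); each point is 1 library and each bar the mean of 2. Nr0b1 is lower at 24 h in both batches and Nanog higher, and Fgf5, Pou3f1 and Otx2 are far above their 2i level at both times.

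Primed epiblast genes split. Of 27 listed, 26 were tested, 6 were called higher and 11 lower. Fgf5, a marker of the primed state, was at 148.5, 121.7, 130.3 and 97.6 CPM at 0 h and at 189.8, 224.5, 246.9 and 256.7 CPM at 24 h, against 0.364 and 0.0511 CPM in 2i. It rose without overlap (0.81 ± 0.14, adjusted p = 0.00277), a call lost in the fit of 18 libraries (adjusted p = 0.228). Pou3f1 (Oct6, an epiblast and neural POU factor) was at 184.9, 160.1, 177.8 and 177.7 CPM at 0 h and at 36.8, 41.7, 46.6 and 35.5 CPM at 24 h. It fell by 2.21 in batch 1 and by 2.19 in batch 2 (log2; -2.202 ± 0.11 over both, adjusted p = 2.51e-06). Otx2, the anterior epiblast factor, was at 220.5, 197.3, 187.9 and 157.3 CPM at 0 h and 216.9, 211.7, 263 and 247.7 CPM at 24 h, and was not called (0.22 ± 0.12, adjusted p = 0.177). Of 25 neuroectoderm genes 15 were tested, 3 were called higher and 4 lower, with 5 higher without replicate 1 at 0 h of batch 2. The neural factors Sox1, Sox3 and Pax6 fell by 2.29 ± 0.44, 1.74 ± 0.19 and 2.34 ± 0.35 on the log2 scale (adjusted p = 0.00384, 0.000196 and 0.00102).

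The 15 genes that fell most were Nr0b1, Rpl10l, Rpl39l, Rbmxl2, Fgf4, Gm10324, Fkbp6, Tex19.1, Mael, Wt1, Slc5a11, Dmrt1, Tuba3a, Nphs1 and Dppa2, with log2 fold changes from -3.77 to -3.10. Rpl10l and Rpl39l are copies of ribosomal protein genes used in male germ cells, and their counts are uncertain because they resemble other genes. Mael, Tex19.1 and Fkbp6 act in transposon control or meiosis. Rpl39l was at 15.1, 12.4, 17.5 and 67.5 CPM at 0 h and at 0.943, 0.951, 5.77 and 4.64 CPM at 24 h. Replicate 2 at 0 h of batch 2 was the highest 0 h library for Rpl39l, Tex19.1, Gm10324, Slc5a11, Nphs1, Dmrt1 and Fkbp6. Each of these genes also fell within batch 1, but the rule that chose them required this. Dppa2, which opens chromatin in stem cells, was at 50.9, 40.1, 75.8 and 115.6 CPM at 0 h and at 3.12, 2.56, 23.9 and 16.6 CPM at 24 h (-3.10 ± 0.34, adjusted p = 0.0002699). Dppa4, its partner, fell by 2.82 ± 0.32 (adjusted p = 0.000284). Of 13 genes of primordial germ cells listed, 12 were tested, 3 were called higher (Kit, Tfap2c and Sox17) and 3 lower (Dazl, Ddx4 and Dnd1), with 6 lower without replicate 1 at 0 h of batch 2.

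Genes of DNA methylation and imprint control were mostly lower. Of 16 listed, 16 were tested, 9 were called lower and 2 higher, with 5 lower without replicate 1 at 24 h of batch 1. Dnmt3l, the cofactor of the de novo methyltransferases, was at 40.3, 22.9, 61.8 and 173.7 CPM at 0 h and at 3.82, 2.08, 23.1 and 12.1 CPM at 24 h (-3.10 ± 0.38, adjusted p = 0.000463). Dnmt3a, a de novo methyltransferase, fell by 1.12 ± 0.10 (adjusted p = 5.28e-05), from 534.6, 597.6, 683.9 and 798.2 CPM to 281.1, 311, 337.2 and 325 CPM.

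Many guidance genes rose. Of 30 Eph, ephrin and guidance genes listed, 28 were tested, 19 were called higher and 0 lower, with a median log2 fold change of 1.34 (1.60 in batch 1 and 0.89 in batch 2). The guidance ligand Ntn1 (netrin) rose by 3.00 ± 0.19, Slit2 by 2.51 ± 0.16 and the semaphorin Sema6d by 3.38 ± 0.48 (adjusted p = 6.96e-06, 6.96e-06 and 0.00102). Cdh11, a mesenchymal cadherin, was at 8.62, 5.49, 3.04 and 2.16 CPM at 0 h and at 206.6, 173, 62.9 and 83.96 CPM at 24 h (4.70 ± 0.18, adjusted p = 4.32e-07). Cdh2 (N-cadherin) was at 34.8, 32.3, 24.2 and 12.6 CPM at 0 h and at 257.7, 279.5, 70.05 and 80.8 CPM at 24 h, a rise of 2.47 ± 0.24 (adjusted p = 0.000139). Both cadherins were higher at 24 h in every library. Cdh1 (E-cadherin), which cells of the streak lose, was at 1047, 1037, 1048 and 1209 CPM at 0 h and at 709.6, 821.9, 1151 and 1096 CPM at 24 h. Both 24 h libraries of batch 1 were below all 0 h libraries and those of batch 2 were not, and the change was not called (-0.30 ± 0.11, adjusted p = 0.0685).

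Of 23 genes of mesenchyme and epithelial to mesenchymal transition, 22 were tested, 10 were called higher and 1 lower. The gene that fell was Snai2, a relative of Snai1, at 0.668 to 1.93 CPM at 0 h and 0.173 to 0.314 CPM at 24 h (-2.27 ± 0.42, adjusted p = 0.00332). Of 26 epithelial genes, 26 were tested, 9 were called lower and 3 higher. Without replicate 2 at 0 h of batch 1 5 were lower, and without replicate 1 at 0 h of batch 2 5 were higher. Cldn4, a tight junction claudin, fell by 1.43 ± 0.13 and Epcam, an epithelial adhesion molecule, by 0.44 ± 0.08 (adjusted p = 6.85e-05 and 0.00366). Dsp (desmoplakin) and the keratin Krt19 rose by 1.76 ± 0.17 and 2.25 ± 0.23 (adjusted p = 0.000106 and 0.000139).

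Of 18 chemokine and migration genes listed, 17 were tested, 12 were called higher and 1 lower. Flt1, a VEGF receptor that acts largely as a sink for the ligand, was at 11.1, 6.88, 4.33 and 6.72 CPM at 0 h and at 97.1, 88.8, 56.9 and 60.8 CPM at 24 h. Flt1 rose by 3.30 in batch 1 and 3.33 in batch 2 (log2; 3.32 ± 0.17 over both, adjusted p = 2.51e-06). Adamts9, a secreted protease and one of the 10 rising genes with the smallest adjusted p, went from 38.05, 26.7, 17.9 and 17.5 CPM to 477.3, 526.7, 326.1 and 349.9 CPM (4.02 ± 0.14, adjusted p = 4.21e-07).

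The summed levels of markers of other tissues differed in size. The blood list summed to 48.8 to 85.2 CPM in the 8 libraries and the fibroblast feeder list to 34.8 to 50.5 CPM. The trophoblast list went from 36.3 to 81.97 CPM at 0 h to 549 to 640.4 CPM at 24 h. Of its 15 genes 9 were tested, 6 were called higher (Eomes, Tfap2c, Hand1, Gata3, Tead4 and Cdx2) and 0 lower. The higher calls were 4 without replicate 1 or 2 at 0 h or replicate 1 at 24 h of batch 1, and 1 gene was lower without replicate 1 at 0 h of batch 2. Eomes, which the streak also expresses, made up 523.8 to 616.2 CPM of the sum at 24 h, and without it the sum was 10.7 to 16.3 CPM at 0 h and 24.2 to 40.7 CPM at 24 h. Prl3d1, a hormone of trophoblast giant cells, was at 0 in all 8 libraries. The endothelial list, which holds Kdr and Flt1, summed to 87.4 to 159.5 CPM at 0 h. At 24 h it summed to 202.1 to 227.1 CPM in batch 1 and 125.4 to 127.9 CPM in batch 2. Of its 14 genes tested, 3 were called higher (Flt1, Kdr and Etv2) and 5 lower (Pecam1, Tek, Eng, Cldn5 and Tal1). The median log2 fold change of that list was -0.47. The calls of Etv2, Cldn5 and Tal1 were lost when some single libraries were left out. The neuroectoderm list summed to 174 to 251.7 CPM at 0 h and 262.8 to 374.1 CPM at 24 h. The part of these cell types in the results was not tested. Cardiomyocyte structural genes summed to 188.2 to 237.4 CPM at 0 h and 269.7 to 323.3 CPM at 24 h, but the single genes went in both directions. Of 17 listed, 10 were tested, 4 were called higher (Actc1, Tpm1, Tnnc1 and Tnni3) and 3 lower (Myh6, Ryr2 and Actn2). Their median log2 fold change was -0.045, with 0.35 in batch 1 and -0.61 in batch 2.

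Of 26 genes of glycolysis and hypoxia tested, 7 were called higher and 0 lower, with 1 lower without replicate 2 at 24 h of batch 1. Ndrg1, a gene that hypoxia induces, was at 5.76, 5.06, 3.8 and 2.55 CPM at 0 h and at 45.05, 61.6, 41.5 and 42.3 CPM at 24 h (3.42 ± 0.18, adjusted p = 2.51e-06). Ldha, the lactate dehydrogenase of glycolysis, rose by 0.62 ± 0.12 (adjusted p = 0.00363). Of 19 genes of oxidative phosphorylation and single-carbon metabolism tested, 7 were called lower and 0 higher. The lower calls were 4 without replicate 1 and 3 without replicate 2 at 0 h of batch 1, and 3 without replicate 1 or 2 at 24 h of batch 2, and 1 was higher without replicate 1 at 0 h of batch 2. Tdh, the threonine enzyme on which mouse stem cells rely, fell by 1.94 ± 0.37 (adjusted p = 0.00457).

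At 12 h in batch 1, both libraries of all 15 genes that rose most and all 15 that fell most lay between those of 0 h and 24 h. These genes were chosen for large changes that separated the same 0 h and 24 h libraries, so that the choice favoured 12 h values between them. No share over all genes was taken. On the scale of log2(CPM + 1) the 12 h mean had covered 33.5% to 68.6% of the way for the rising genes, with a median of 47.7%, and 39.1% to 64.7% for the falling genes, with a median of 50%. T was at 123.6 and 149.1 CPM at 12 h, Fgf4 at 30.1 and 22.4 CPM and Mesp1 at 4.58 and 5.98 CPM. Among the fixed genes, Eomes and Sox2 also had both 12 h libraries between those of 0 h and 24 h, and Pou5f1, Fgf8 and Otx2 did not. Nanog was higher at 12 h, at 262.8 and 276.4 CPM, than at 0 h or 24 h of batch 1. The 12 h libraries had no counterpart in batch 2.

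**Figure D5:**
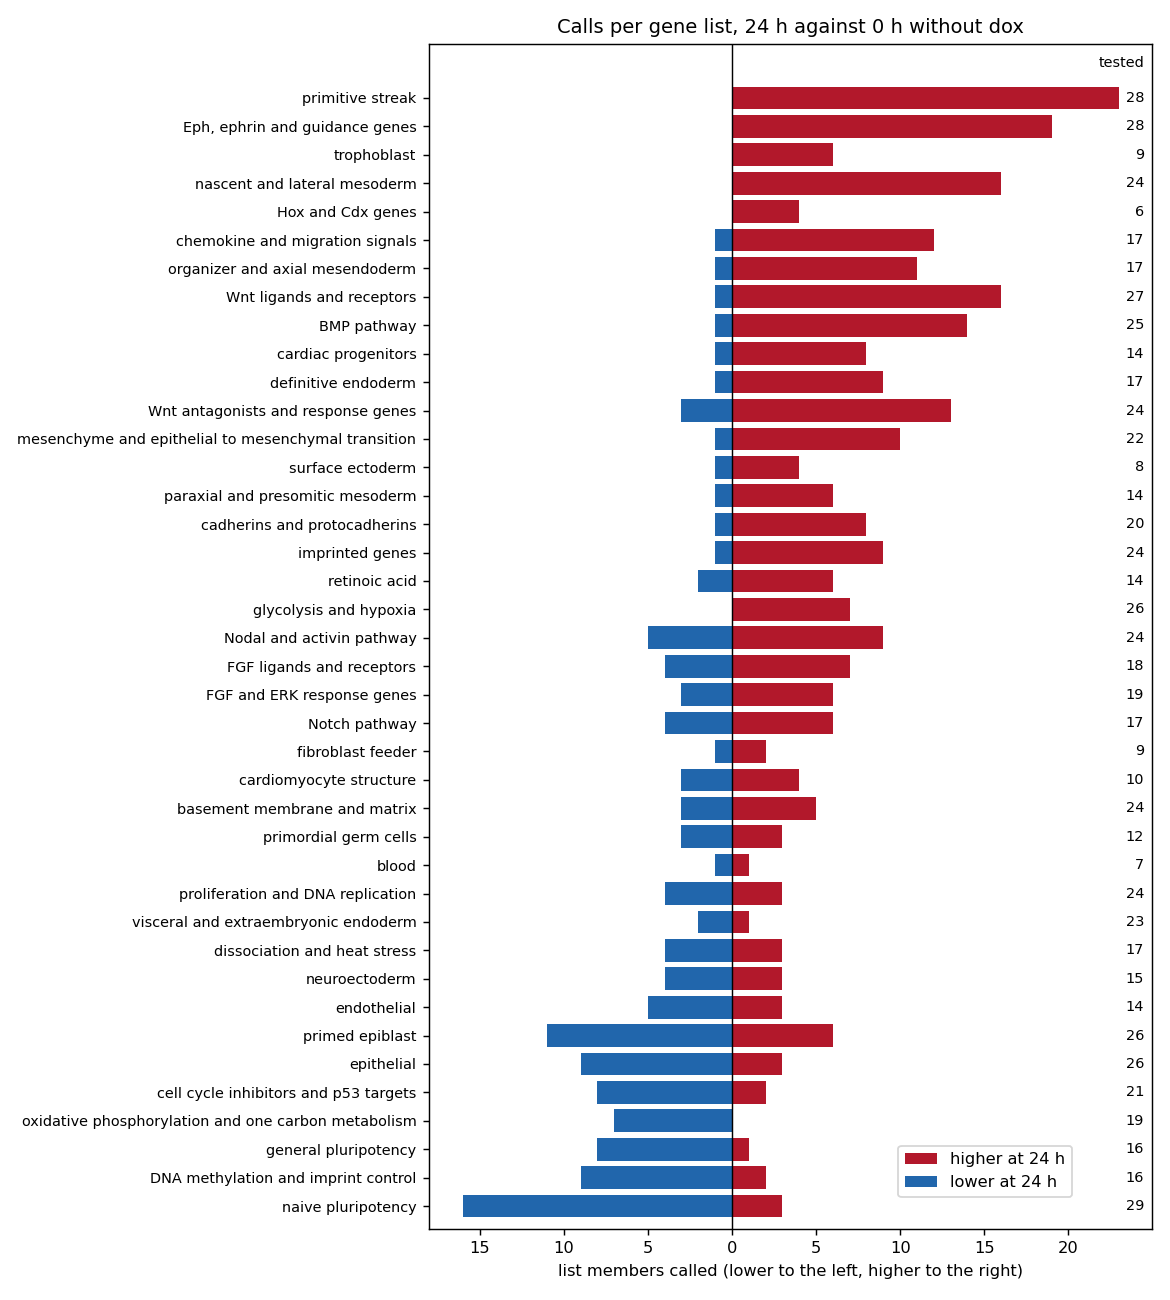
Members of each gene list called higher (red, to the right) and lower (blue, to the left) at 24 h against 0 h over both batches, as a number of genes, with the number tested at the right margin; lists are ordered by the share higher less the share lower. The primitive streak list has 23 of 28 members higher and the naive pluripotency list 16 of 29 lower.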

How the data were processed

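RNA-seq libraries of polyA RNA were counted per gene and deposited as 1 table of raw counts for each library by the authors. The submitters' processing notes name Trimmomatic, STAR, HTSeq, DESeq2 and the mm10 build, without versions; whether the counting used strand is not given in the sources used here, so that genes whose exons overlap cannot be told apart with certainty. Each library lists 49671 gene identifiers, of which 49412 matched a symbol and coordinates (GRCm38). Rows that name no gene were left out, the reads without a feature being 4.57% to 10.3% of the gene total; the row for low-quality reads is 0 in batch 2 and equals that for reads not aligned uniquely in batch 1.

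The 8 libraries were fitted with edgeR 4.0.16 in R 4.3.3 (TMM scaling, filterByExpr on the 4 groups, robust quasi-likelihood F test, batch as a term), with Benjamini-Hochberg adjustment over all 17473 genes tested and calls at an adjusted p below 0.05. A batch by time interaction gave the difference between batches and the change within each. CPM was the count over the gene total, times 1000000. The fit was tested on simulated data. At 12951085 counts or more 1 count is at most 0.0772 CPM, so that counting error is large for genes with few counts, such as Hand1, Noto and Wnt3a.

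The members and gene lists were chosen with earlier results of these data known. Genes named were the 15 highest and 15 lowest log2 fold changes among called protein-coding genes with a mean of at least 10 CPM at the higher time and separated in both batches, 28 fixed genes, members of lists whose count is printed, and the 10 smallest p-values in each direction for the change and for the difference between batches. Alternatives were other scalings, filters, tools (DESeq2 1.42.0), sample sets and terms, and leaving out each library. The authors' other libraries, with dox or of other genotypes, were not used here except in the fit of 18 libraries.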

Additional observations from a re-analysis of the deposited data

Results flagged for a closer look

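Of 130 groups of 4 libraries examined, 7 had a library far from the other 3, all at 0 h, where chance gives about 1 in 20. Replicate 2 of batch 2 was that library for Cdh1 (1209 CPM), Gm10324 (29.5 CPM), Nphs1 (104.9 CPM), Rpl39l (67.48 CPM), Slc5a11 (29.5 CPM) and Tex19.1 (46.02 CPM), and replicate 2 of batch 1 for Wnt3a (0.3342 CPM, with 0 in the other libraries).

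The change from 0 h to 24 h differed between batches for 32 genes of the 632 named by rule or held in the lists, by edgeR's quasi-likelihood test of the interaction. Of these, 21 are named by their own values or are among the 28 fixed genes, and the others are list members only. Among the 21, the log2 change was lower in batch 2 by -5.811 for Mesp1, -5.127 for Fgf3, -5.053 for Mesp2, -4.828 for Hs3st3b1, -4.725 for Kdr, -4.151 for Cxcr4, -3.72 for Sox17, -2.867 for Arl4d, -2.394 for Ier5l, -2.216 for Gm47283 and -1.4 for Selenoh. It was higher in batch 2 by 2.599 for Acta2, 2.511 for Nefm, 2.37 for Gdf3, 2.139 for Nefl, 2.018 for Tgfbr3, 1.917 for Pla2g1b, 1.636 for Dppa5a, 1.501 for Spry2, 1.453 for Zfp979 and 1.322 for Slc29a1. With 1 library left out, 0 of the 21 were called without replicate 1 or 2 at 0 h or replicate 1 at 24 h of batch 1, 5 without replicate 2 at 24 h of batch 1, 21 without either 0 h library of batch 2, and 11 and 10 without replicate 1 and 2 at 24 h of batch 2.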

How the results depend on the processing

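The counts of 2485 higher and 2487 lower genes fell to 603 and 458 without a batch term and to 483 and 497 in batch 2 alone, and ranged from 1424 to 2955 and from 1402 to 2882 when 1 library was left out. List members called, 196 higher and 113 lower, fell to 74 and 35 without a batch term and to 74 and 44 in batch 2 alone. With the replicate number as a block the calls were 2039 and 1973. The difference between replicates 1 and 2 at 0 h was correlated over 10085 genes with that at 24 h. The Pearson r of these differences was 0.248 in batch 1 and -0.153 in batch 2. The labels do not say that numbers pair the libraries. With the numbers crossed in batch 2, a block chosen after seeing the data, the calls were 2255 and 2208. The counts of genes whose change was more positive in batch 2 and in batch 1, 11 and 44, were 321 and 314 without a filter on low counts and 134 and 178 with DESeq2, and the first was 19 with the replicate block, against 58 for the second; with 1 library left out they ranged from 0 to 311 and from 0 to 362. Of 65 named genes 57 were called, and 54 of these in every fit that left out 1 library. Without a batch term 38 of them were called the same way and in batch 2 alone 43. Genes named for a large change or a small p-value were taken from called genes, so that their calls were fixed by the choice. Only the 28 fixed genes could fail to be called, with 16 called higher, 4 lower and 8 not called. In the fit of 18 libraries 181 list members were called higher and 101 lower. Many single calls were lost there, those of Nanog and Fgf5 among them. The calls of Tdgf1, Dusp6 and Epcam (adjusted p = 0.0838, 0.167 and 0.174) were also lost. So were those of Spry1, Etv5, Ccnd1 and Tal1 (adjusted p = 0.24, 0.306, 0.111 and 0.129), and this is not the full set. Changes that were not called turned sign: Bmp4 (-0.55), Lefty2 (0.031), Mesp2 (-0.70) and Klf4 (-1.04) in batch 2 alone, Otx2 (-0.028) in batch 1 alone, and Klf4 with 18 libraries (-0.051), with DESeq2 (-0.00653) and with a library left out (-0.26 to 0.34). The log2 fold change of Wnt3a was 8.31 without replicate 2 at 0 h of batch 1, against 4.62. The causes were not tested.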

Other observations

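The gene families here were chosen after their values were seen and were not tested as sets. A cluster of zinc finger genes on chromosome 4 (GRCm38, 145510759 to 147809788) had 18 genes tested, 17 called lower and 0 higher, with a median log2 fold change of -2.07, beside 72 higher and 32 lower of 362 other Zfp genes. The summed level of the cluster was 760.5 and 631.5 CPM at 0 h, 497.3 and 389.9 CPM at 12 h and 271.4 and 178.3 CPM at 24 h in batch 1, and 591.9 and 1065 CPM at 0 h and 442.9 and 474.3 CPM at 24 h in batch 2. These genes are near-identical copies, so that their single counts are uncertain. Of 17 Platr transcripts, noncoding RNAs named for pluripotency, 13 were called lower and 0 higher.

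Of 38 clustered protocadherins, adhesion molecules best known from neurons, 22 were called higher and 0 lower. Their median log2 fold change was 1.76 in batch 1 and 0.89 in batch 2. In batch 2 single genes were scattered, with -0.77 for Pcdhga1, 0 for Pcdhga10, 1.66 for Pcdhga3 and 6.34 for Pcdhgb4. The same genes changed by 1.655, 1.79, 1.77 and 1.78 in batch 1, so that the median of batch 2 is the less certain. Many clustered genes had nearly the same values as each other at each time. The mean CPM at 0 h and at 24 h was 9.91 and 35.3 for Pcdhga3, 9.62 and 34.8 for Pcdhgb1, and 9.66 and 37 for Pcdhgc4. The calls therefore cannot be taken as 22 separate results. All protocadherins summed to 576.1 and 627.6 CPM at 0 h and 1730 and 2117 CPM at 24 h in batch 1. In batch 2 they summed to 134.6 and 138.2 CPM at 0 h and 151.2 and 150.4 CPM at 24 h. The clustered genes share exons, so that a sum may hold the same reads more than once. The part of counting in this was not tested. Of 50 genes of the large subunit of the mitochondrial ribosome 18 were called lower, 0 higher and 32 not called, and of 29 of the small subunit 10 were lower, 1 higher and 18 not called. Of 15 genes with an intraflagellar transport (Ift) name 6 were called higher and 0 lower. The 6 include Ift88os, named as an opposite-strand transcript and not itself a transport gene, at a mean of 0.71 CPM at 0 h and 1.89 CPM at 24 h.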
